A study of Mus musculus with 2 samples.

Results

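The genes described are 9 Polycomb repressor genes, Ezh1, Ezh2, Eed, Suz12, Jarid2, Ring1, Rnf2, Bmi1 and Cbx7, taken by symbol from a table of 16906 mouse genes. All 9 were found, and all 9 passed the minimum used for a measured gene, a mean of 1 FPKM over both libraries (RNA fragments normalised for transcript length and library size), as did 11667 genes in all. RNA came from luminal epithelial cells of the mammary gland, enriched by fluorescence-activated sorting from C57BL/6 mice 8 weeks of age that had received tamoxifen. The CKO group (1 library) was K8-CreERT2;miR-200c/141-flox/flox, in which a tamoxifen-inducible Cre recombinase under the keratin 8 promoter, active in luminal cells, can delete the miR-200c and miR-141 cluster. The Ctrl group (1 library) was miR-200c/141-flox/flox and received tamoxifen without Cre, so effects of Cre itself and of the deletion cannot be told apart. Both groups carried the floxed alleles, and miR-200c and miR-141 themselves are not analysed here, so the deletion was not checked in these libraries. The labels place the harvest 4 weeks after tamoxifen in one field and 3 days after it in another, and do not state how many mice were pooled. With 1 library per group there was no replicate and no test across samples. Intervals given here are 95% intervals for counting error only.

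Polycomb proteins keep developmental and cell cycle genes silent through a pair of complexes. In Polycomb repressive complex 2 (PRC2) the methyltransferases EZH1 or EZH2, held by EED and SUZ12, methylate histone H3, and JARID2 helps to bring the complex to chromatin. In Polycomb repressive complex 1 (PRC1) the ubiquitin ligases RING1 or RNF2 modify histone H2A with a PCGF partner such as BMI1, and CBX7 binds the methyl mark left by PRC2. In the mammary gland Bmi1 is known for supporting the self-renewal of stem and progenitor cells, in part by repressing Cdkn2a. In human breast cancer cells, BMI1 and SUZ12 have been reported as targets of the miR-200 family.

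The mature miRNAs of the deleted cluster are shown because their seeds decide which transcripts they can pair with. Capitals mark the seed, bases 2 to 8 (sequences from RefSeq, GRCm38.p6).
miR-200c-3p: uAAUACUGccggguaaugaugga
miR-141-3p: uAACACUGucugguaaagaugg
The seeds differ, so the cluster addresses separate sets of sites, CAGTATT (miR-200c-3p) or CAGTGTT (the other miRNA). These letters were sought on the sense strand of the longest 3' UTR among the protein-coding transcripts of each gene (GENCODE M21, GRCm38).

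A match to at least 1 seed was found in 4 of the 9 members, Bmi1, Suz12, Rnf2 and Cbx7, and in 29.9% of 11436 measured genes with an annotated 3' UTR. The sites are shown because they are the only stretches in the members' searched UTRs that match a full seed. Capitals mark the seed match.
Bmi1, miR-200c-3p: atgacataacaggaaaCAGTATTg
Suz12, miR-200c-3p: gatgtgacttgtcatcCAGTATTa
Rnf2, miR-200c-3p: taagtttaaattctcaCAGTATTt
Suz12, miR-141-3p: atggattgggaacaggCAGTGTTc
Cbx7, miR-141-3p: aacagggggggaaggcCAGTGTTg
On GRCm38 the Bmi1 match lies at chr2:18685168-18685174 on the plus strand, in exon 10 of 10. The Suz12 matches lie at chr11:80033501-80033507 and chr11:80032302-80032308 on the plus strand, in exon 16 of 16. The Rnf2 match lies at chr1:151469960-151469966 on the minus strand, in exon 8 of 8, and the Cbx7 match at chr15:79918123-79918129 on the minus strand, in exon 6 of 6. Only the miR-200c-3p match of Suz12 is followed by an A, the base that extends the pairing site. The Bmi1 and Suz12 matches are present in 2 of 2 protein-coding transcripts with a 3' UTR of each gene. The Rnf2 and Cbx7 matches are present in 2 of 4, so they depend on which transcript is made. The 3' UTRs searched ran from 402 bases (Ezh2) to 2509 bases (Cbx7), against a median of 1164 over the measured genes, and a longer UTR holds any given 7-mer more often. The letter match is a description of the annotation, and no pairing was measured.

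All 9 genes were expressed in both libraries, at 5.41 to 30.39 FPKM in CKO and 7.22 to 28.59 FPKM in Ctrl. Their sum was 148.01 FPKM in CKO and 145.26 FPKM in Ctrl. None differed by 1.5-fold between the libraries. The highest ratio was that of Cbx7, 1.28-fold higher in CKO, and the lowest that of Jarid2, 1.31-fold lower. Bmi1 and Suz12, the members with reported miR-200 sites, were both lower in the CKO library. About 11470000 reads lay behind the CKO values and 12530000 behind the Ctrl values, both estimated from p-values in the authors' deposited table, and each member rested on 232 to 1094 reads in CKO and 284 to 972 reads in Ctrl.

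**Figure D1:**
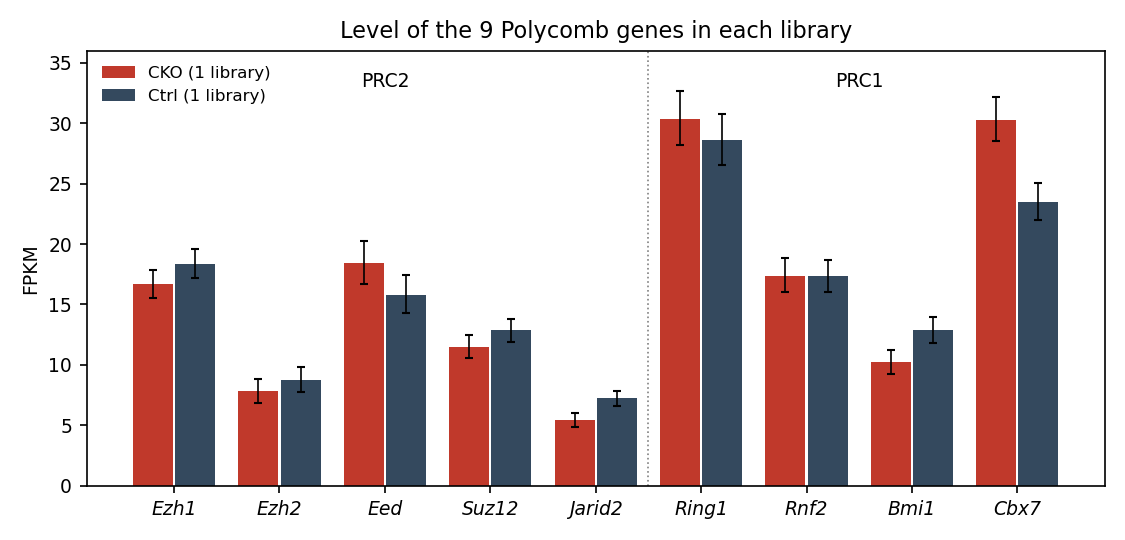
FPKM (vertical axis) of the 9 Polycomb genes in the CKO library (red) and the Ctrl library (dark blue), PRC2 genes left and PRC1 genes right of the dotted line. Bars are 1 library each and error bars are 95% counting intervals; Ring1 and Cbx7 stand highest in CKO, at 30.39 and 30.29 FPKM, and Jarid2 lowest, at 5.41 FPKM.

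The members lie on 8 chromosomes (GRCm38). The PRC2 genes are Ezh1 at chr11:101191115-101226463 (minus strand), Ezh2 at chr6:47530139-47595341 (minus), Eed at chr7:89954654-89980983 (minus), Suz12 at chr11:79993106-80034123 (plus) and Jarid2 at chr13:44729474-44921643 (plus). The PRC1 genes are Ring1 at chr17:34020792-34024680 (minus), Rnf2 at chr1:151458004-151500955 (minus), Bmi1 at chr2:18677018-18686629 (plus) and Cbx7 at chr15:79915807-79971119 (minus). Only Ezh1 and Suz12 share a chromosome.

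The methyltransferase genes of PRC2 stood in nearly the same proportion in both libraries. Ezh1, whose product maintains the mark in cells that divide little, was at 16.66 FPKM in CKO and 18.37 FPKM in Ctrl. Ezh2, the more active enzyme and the form typical of dividing cells, was at 7.80 FPKM in CKO and 8.74 FPKM in Ctrl. Both were slightly lower in CKO: the log2 ratio, here and below CKO over Ctrl with 0.5 FPKM added to each, was -0.14 for Ezh1 (95% interval of the read ratio -0.28 to -0.0048) and -0.15 for Ezh2 (-0.42 to 0.09). Ezh1 stood 2.14-fold above Ezh2 per length in CKO and 2.10-fold in Ctrl. Ezh1 made up 68.1% of the summed EZH level in CKO and 67.8% in Ctrl. The interval of Ezh2 holds a ratio of 1, and that of Ezh1 only just excludes it.

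The scaffold genes went opposite ways. Eed, which encodes the subunit that binds the methyl mark and stimulates the enzyme, was at 18.41 FPKM in CKO and 15.80 FPKM in Ctrl, a log2 ratio of 0.21 (0.02 to 0.42). Suz12, which encodes the subunit that holds the complex together, was at 11.47 FPKM in CKO and 12.85 FPKM in Ctrl, a log2 ratio of -0.16 (-0.32 to -0.0044). Eed therefore stood 1.61-fold above Suz12 in CKO and 1.23-fold in Ctrl. Rescaling the libraries to equal FPKM sums brought the interval of Eed to include a ratio of 1 (-0.05 to 0.34), and scaling by the trimmed mean of M-values did the same for Suz12 (-0.28 to 0.04) and Ezh1 (-0.24 to 0.04). Whether the intervals of Eed, Suz12 and Ezh1 exclude a ratio of 1 thus depended on the scaling. With 1 library per group no limit of detection between the groups could be set.

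Jarid2 was the member furthest on the side of Ctrl. It was at 5.41 FPKM in CKO and 7.22 FPKM in Ctrl, from 347 estimated reads in CKO and 505 in Ctrl, a log2 ratio of -0.39 (-0.62 to -0.21). It was also the weakest member in both libraries. Among all measured genes, 8.77% had a lower ratio than Jarid2, so its position was toward the edge but not among the extremes of the table.

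In PRC1, the ligase genes differed little between the libraries. Ring1 was at 30.39 FPKM in CKO and 28.59 FPKM in Ctrl, a log2 ratio of 0.09 (-0.06 to 0.24). Rnf2, which encodes the principal ligase of the pair in embryonic stem cells of the mouse, was at 17.37 FPKM in CKO and 17.35 FPKM in Ctrl, a log2 ratio of 0.00 (-0.16 to 0.16). Both intervals hold a ratio of 1, and for Rnf2 the sign changed with scaling. Ring1 stood above Rnf2 by 1.75-fold in CKO and 1.65-fold in Ctrl.

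Bmi1 was lower in CKO, at 10.21 FPKM against 12.87 FPKM in Ctrl, from 428 estimated reads in CKO and 589 in Ctrl. Its log2 ratio was -0.32 (-0.52 to -0.15), a 1.2484-fold difference, and 12.15% of measured genes had a lower ratio. Of the genes with a miR-200c-3p seed match printed above, Bmi1 and Suz12 were thus lower in CKO, Suz12 only by an interval that held a ratio of 1 under other scalings, and Rnf2 stood at nearly equal levels. Cbx7, with a miR-141-3p match, was higher in CKO.

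Cbx7 was the member furthest on the side of CKO, at 30.29 FPKM against 23.47 FPKM in Ctrl, from 1094 estimated reads in CKO and 926 in Ctrl. Its log2 ratio was 0.36 (0.24 to 0.50), and 93.75% of measured genes had a lower one. Cbx7 overlaps the 3' end of Apobec3 on the opposite strand (Cbx7 at 79915807 to 79971119 and Apobec3 at 79891659 to 79915906 on chromosome 15, GRCm38). The labels do not say whether counting used strand, so reads in the shared bases cannot be assigned, and Apobec3 itself had a log2 ratio of -0.15.

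By the rule that combines a 1.5-fold ratio with an interval excluding a ratio of 1, 0 members were higher and 0 lower, where 2.29% of the 11667 measured genes were higher and 3.03% lower (5.31% either way). None passed 2-fold, where 0.754% of measured genes were higher and 0.557% lower. At a log2 threshold of 0.3219 in place of 1.5-fold, Cbx7 was higher and Jarid2 lower, with Bmi1 just inside it at -0.32, where 6.33% of measured genes were higher and 10.5% lower (16.8% either way). By the interval alone 2 members were higher (Eed, Cbx7) and 4 lower (Bmi1, Suz12, Ezh1, Jarid2), where 16.5% of measured genes were higher and 23.6% lower (40.2% either way). The median log2 ratio of the members was -0.14, against -0.03 over all measured genes, whose quartiles were -0.19 and 0.12. In the authors' deposited table none of the 9 carries a call of up or down. The false discovery rates given there were 3.05e-08 for Cbx7, 0.000216 for Jarid2 and 0.00204 for Bmi1, and they compare the reads of these libraries, not the genotypes.

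Transcript length moved with the ratio across the whole table and touches the members. Over 10 equal bins of measured genes by length, the median log2 ratio was 0.11 in the shortest bin and -0.20 in the longest, with every step downward. The 5 members below 0 had transcripts of 2596 to 5587 bases and the 4 members above 0 transcripts of 2048 to 3149 bases, so the ranges overlap but lean the same way. Relative to the median of its own length bin, Jarid2 was at -0.27, Bmi1 at -0.27 and Ezh2 at -0.15. On the same relative scale Suz12 was at -0.08 and Ezh1 at -0.06, Eed at 0.20 and Cbx7 at 0.38. The intervals of Suz12 and Ezh1, which excluded a ratio of 1 before, held it on this scale (Suz12 -0.25 to 0.07, Ezh1 -0.20 to 0.07). The intervals of Bmi1, Jarid2, Eed and Cbx7 still excluded it. The part of length in the members' ratios was not tested further.

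**Figure D2:**
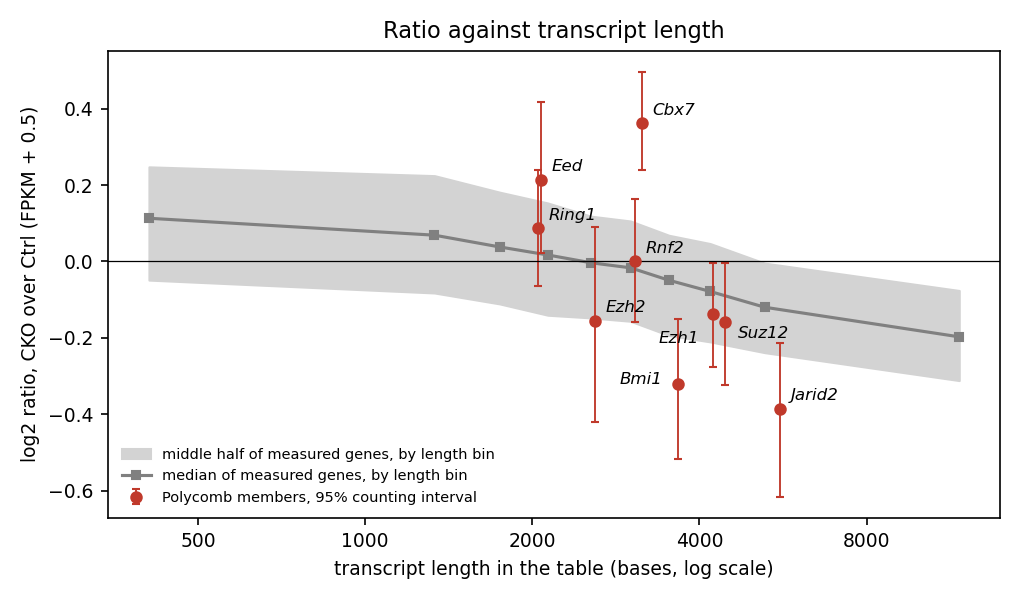
Log2 ratio of CKO over Ctrl (vertical axis) against transcript length in bases (log axis). Red points are the 9 members with 95% counting intervals; grey squares and the band are the median and the quartiles of measured genes in 10 bins of length, falling to -0.20 in the longest bin against 0.11 in the shortest, with Cbx7 and Eed above the band and Bmi1, Jarid2 and, narrowly, Ezh2 below it.

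The order of the levels was similar in both libraries. In CKO, Ring1 and Cbx7 came first with overlapping intervals, followed by Eed, Rnf2 and Ezh1, whose intervals also overlap, then Suz12 and Bmi1, then Ezh2 and last Jarid2. In Ctrl, Ring1 (26.6 to 30.8 FPKM) stood apart from Cbx7 (21.98 to 25.03 FPKM). Ezh1, Rnf2 and Eed followed with overlapping intervals, then Bmi1 and Suz12 at nearly equal levels of 12.87 and 12.85 FPKM, then Ezh2 and Jarid2. Members ranked from percentile 50.96 (Jarid2) to 83.93 (Ring1) of all 16906 genes by FPKM in CKO, and from percentile 54.99 to 82.96 for the same genes in Ctrl. The members were thus of middle to upper abundance in these cells, with the PRC1 genes Ring1 and Cbx7 above every PRC2 gene among the members. This ranking does not extend to PRC2 genes outside the members. Rbbp7 stood above Ring1 and Cbx7 in both libraries, at 54.45 FPKM in CKO and 46.8 FPKM in Ctrl. Phf1 (33.15 FPKM) and Rbbp4 (28.74 FPKM) stood above both in Ctrl, but below both in CKO (28.68 and 28.6 FPKM).

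The other members of each paralog family place these values. Among PCGF genes, which encode the alternative partners of the ligases, Bmi1 made up 16.5% of the summed level in CKO and 20.6% in Ctrl. The sum itself was 62.04 FPKM in CKO and 62.53 FPKM in Ctrl. Pcgf5 ran the other way, at 12.26 FPKM in CKO and 9.73 FPKM in Ctrl, a log2 ratio of 0.32 (0.13 to 0.54), but its p-value in the authors' deposited table implies a read ratio of only 0.03 on the log2 scale. Pcgf2, the closest paralog of Bmi1, was at 13.84 FPKM in CKO and 12.86 FPKM in Ctrl, with an interval of -0.09 to 0.31. Pcgf3 and Pcgf6 had log2 ratios of -0.15 and -0.03, and both intervals hold a ratio of 1.

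The CBX genes, which encode the readers of the methyl mark, differed in direction. Cbx6 and Cbx7, which lie on chromosome 15 with Apobec3 between them, were both higher in CKO. Cbx6 was at 26.46 FPKM in CKO and 19.71 FPKM in Ctrl, a log2 ratio of 0.42 (0.32 to 0.53). Cbx2 and Cbx8, neighbours on chromosome 11, both had ratios below 0. Cbx2 was at 0.94 FPKM in CKO and 1.86 FPKM in Ctrl, from 46 estimated reads in CKO and 99 in Ctrl, a log2 ratio of -0.71 (-1.52 to -0.46). Cbx8 was at 2.89 FPKM in CKO and 4.10 FPKM in Ctrl, a log2 ratio of -0.44 (-0.96 to -0.06). Cbx7 and Cbx6 stood well above both in each library. Cbx6 overlaps Npcd on the same strand (log2 ratio 0.14), so its reads may be shared, and the p-value of Cbx8 in the authors' deposited table implies a smaller log2 read ratio of -0.19. The grouping by position was noticed after the values were seen.

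**Figure D3:**
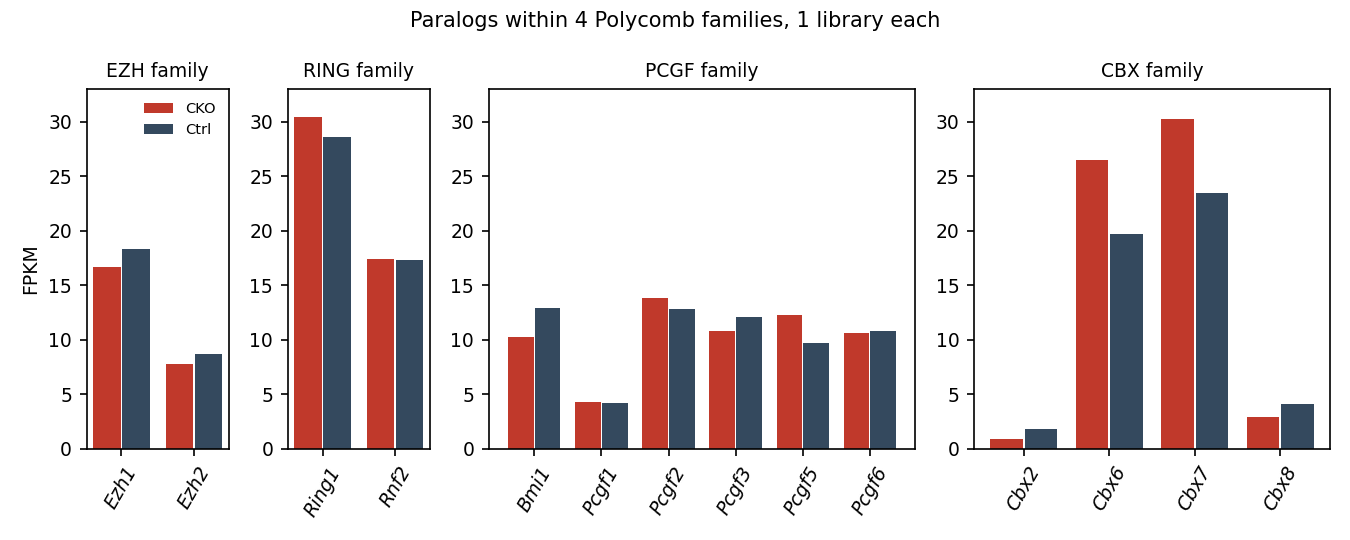
FPKM (vertical axis, same range in each panel) of paralogs in the EZH, RING, PCGF and CBX families in CKO (red) and Ctrl (dark blue), 1 library each. Cbx6 and Cbx7 are the highest CBX genes shown and higher in CKO, while Bmi1 is at 10.21 FPKM in CKO and 12.87 FPKM in Ctrl.

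The rest of the Polycomb machinery had log2 ratios of -0.71 to 0.46, against -0.39 to 0.36 for the members. Of 49 further genes listed, 45 were measured, and by the 1.5-fold rule 0 were higher and 1 lower, Cbx2. Their median log2 ratio was -0.09, and 0.04 relative to genes of their length. By the interval alone 7 of the 45 were higher and 17 lower, where 16.5% of all measured genes were higher and 23.6% lower. Ratios below 0 were found in 31 of the 45, and in 54.8% of all measured genes. A seed match was found in 23 of the 46 with an annotated 3' UTR, and in 29.9% of measured genes.

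Among PRC2 partners, the histone chaperone gene Rbbp7 had a log2 ratio of 0.22 (0.11 to 0.33) and its paralog Rbbp4 -0.01. Of the accessory genes, Epop was at -0.33 (-0.55 to -0.13) and Phf1, whose product helps PRC2 to bind chromatin, at -0.21 (-0.34 to -0.07). The intervals of Mtf2 and Aebp2 hold a ratio of 1. Of 4 measured accessory genes besides Jarid2, 0 passed 1.5-fold and 4 had ratios below 0, where 54.8% of all measured genes had. Their median was -0.12, and Aebp2 was only just below 0, at -0.004. Relative to genes of their length, Epop and Phf1 lay at -0.33 and -0.20, and Mtf2 and Aebp2 at 0.05 and 0.12. On that scale Rbbp7 and Rbbp4 lay at 0.20 and 0.07.

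Among the other PRC1 genes, the most abundant was Phc2, a polyhomeotic gene, at 117.35 FPKM in CKO and 108.69 FPKM in Ctrl. Its paralogs Phc3 and Phc1 had log2 ratios of -0.33 (-0.44 to -0.25) and -0.19 (-0.40 to -0.0020), and Sfmbt1 -0.27. Of 5 measured PHC and SCM genes, 0 passed 1.5-fold. Of 10 partners of the variant forms of PRC1, 0 passed it, with a median of -0.01. L3mbtl2 was at 4.90 FPKM in CKO and 3.42 FPKM in Ctrl, a log2 ratio of 0.46 (0.21 to 0.84). The repressor genes Mga and Auts2 were at -0.36 and -0.31, and Bcor, a corepressor gene, at 0.18. Relative to genes of their length, Phc3, Phc1 and Sfmbt1 lay at -0.13, -0.14 and -0.07, and Mga and Auts2 at -0.16 and -0.12. On that scale Phc2, L3mbtl2 and Bcor lay at 0.11, 0.51 and 0.38.

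Genes whose products oppose Polycomb, and genes for recruiting factors, were listed too, and 0 of the measured ones passed 1.5-fold. The demethylase genes Kdm6a and Kdm6b, whose products remove the methyl mark, had log2 ratios of -0.22 (-0.35 to -0.09) and -0.13 (-0.20 to -0.07). In the complex that removes ubiquitin from histone H2A, 9 measured genes had 0 past 1.5-fold and a median of -0.09, with Hcfc1 at -0.19, Asxl2 at -0.20, Mbd5 at -0.14 and Foxk1 at -0.09. Of 4 measured genes for recruiting factors and related corepressors, Rest was at -0.34, Lcorl at -0.35, Lcor at -0.18 and Yy1 at 0.14. Relative to genes of their length, Hcfc1, Asxl2 and Lcor lay at 0.00, 0.00 and 0.02. On that scale Kdm6a lay at -0.10, Kdm6b at 0.06, Mbd5 at 0.05 and Foxk1 at 0.10. Rest, Lcorl and Yy1 lay at -0.26, -0.23 and 0.13.

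**Figure D4:**
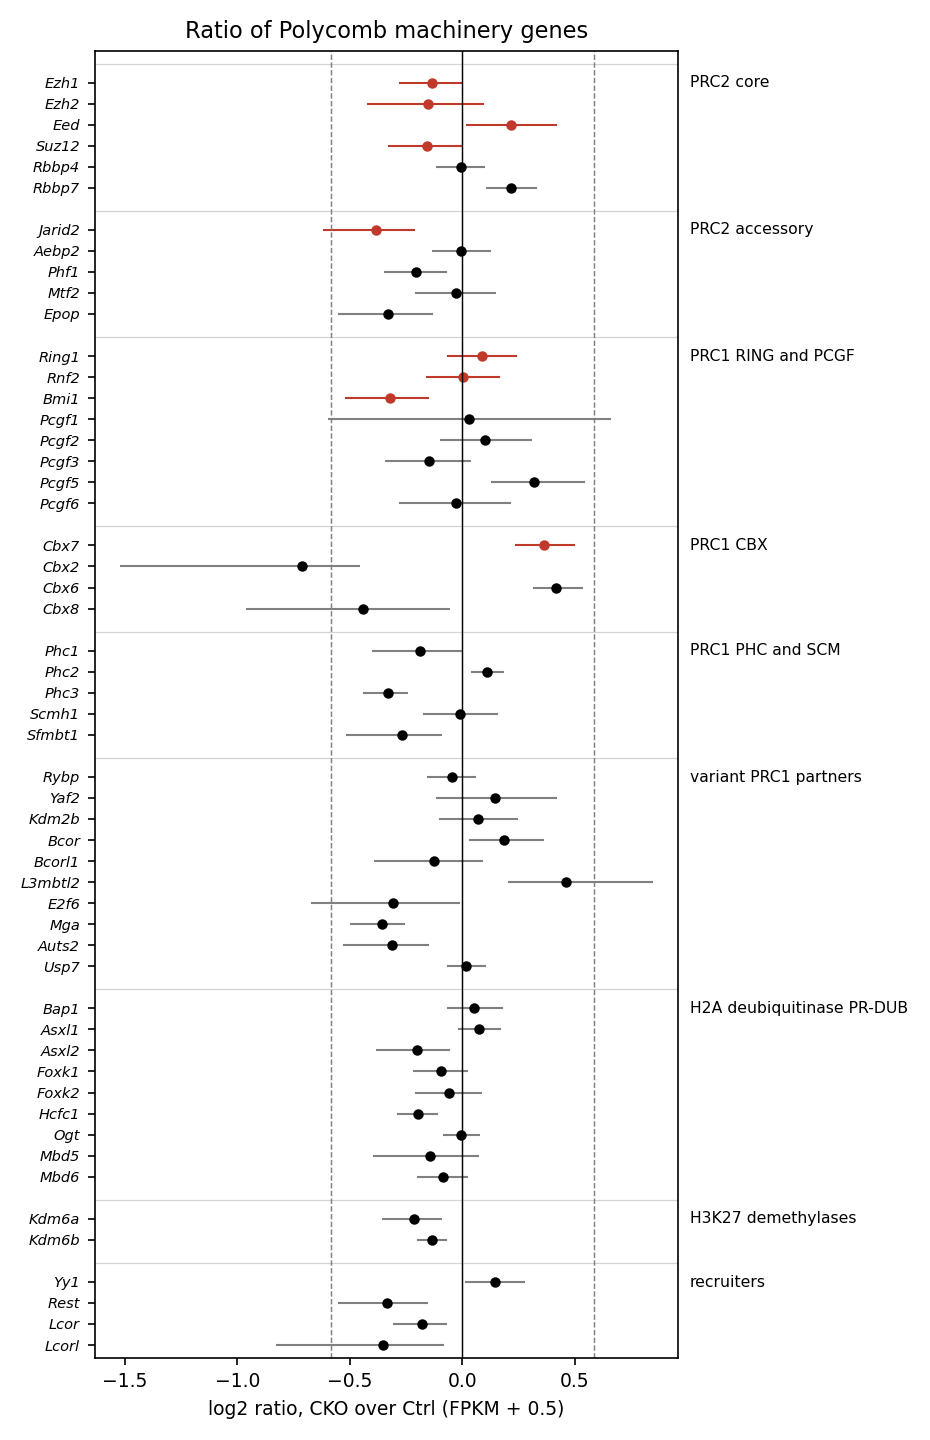
Log2 ratio of CKO over Ctrl (horizontal axis) of measured Polycomb machinery genes by complex, the 9 members in red and others in black, with 95% counting intervals and 1.5-fold marked by dashed lines. Cbx2 is the only gene shown whose point lies past a dashed line.

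Genes that Polycomb is known to silence were mostly below the minimum for a measured gene. Of 44 textbook targets listed, 34 were in the table and 8 were measured, of which 0 were past 1.5-fold either way, with a median log2 ratio of -0.03. Among 23 Hox genes in the table, 20 were below the minimum, at 0.51 FPKM or less in either library. The highest of these, Hoxd8, named outside the naming rule, was at 0.51 FPKM in CKO and 0.12 FPKM in Ctrl. It rested on only 12 and 3 estimated reads (log2 interval 0.24 to 4.59), and the intervals of the others below the minimum hold a ratio of 1. Hoxb2, an anterior Hox gene, was at 9.02 FPKM in CKO and 7.05 FPKM in Ctrl, a log2 ratio of 0.33 (-0.0024 to 0.71). Tbx3, a mammary transcription factor gene, was at 18.04 FPKM in CKO and 21.91 FPKM in Ctrl, a log2 ratio of -0.27 (-0.40 to -0.16). The cell cycle inhibitor gene Cdkn1a was at 122.64 and 110.68 FPKM in CKO and Ctrl, a log2 ratio of 0.15 (0.07 to 0.23). Cdkn1c, another inhibitor gene, was at 1.60 FPKM in CKO and 1.97 FPKM in Ctrl (-0.97 to 0.36). Cdkn2a, the classic target of Bmi1, was named after its values were seen, outside the naming rule, and rested on 6 reads in CKO and 12 in Ctrl, too few to show a difference (log2 interval -2.57 to 0.65).

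The composition of the sorted cells bears on all of these values, since in bulk RNA fewer cells of a type and less RNA per cell cannot be told apart. Of 12 luminal markers all were measured, and their summed level was 18502.07 FPKM in CKO and 13806.24 FPKM in Ctrl. The largest part of each sum was Krt18, at 10398.36 FPKM in CKO and 6606.79 FPKM in Ctrl. By the interval alone 6 of the 12 were higher and 5 lower, where 16.5% of all measured genes were higher and 23.6% lower. The median log2 ratio was 0.07, with Pgr at -0.44 and Prlr at -0.30. By the 1.5-fold rule 1 was higher (Krt18), where 2.29% of all measured genes were higher and 3.03% lower. The same shares stand beside the 1.5-fold counts of the marker lists that follow. Basal myoepithelial markers summed to 293.55 FPKM in CKO and 160.64 FPKM in Ctrl, with 7 of 9 measured members past 1.5-fold higher and 1, Trp63, lower. Immune markers summed to 53.21 FPKM in CKO and 32.76 FPKM in Ctrl, with 1 of 4 measured members higher. That member, Cd74, made up most of both sums, at 34.79 FPKM in CKO and 17.98 FPKM in Ctrl. Fibroblast markers summed to 42.56 and 40.29 FPKM in CKO and Ctrl, most of it Dcn, at 30.74 and 25.57 FPKM. Endothelial and pericyte markers summed to 36.92 and 34.61 FPKM. In either list 0 measured members were past 1.5-fold. The fibroblast markers Pdgfra and Lum, below the minimum and named outside the naming rule, were lower in CKO. Pdgfra was at 0.31 FPKM in CKO and 1.05 FPKM in Ctrl, and Lum at 0.38 and 1.16 FPKM. Of the adipocyte markers, Fabp4 was measured, at 44.19 FPKM in CKO and 33.36 FPKM in Ctrl. Proliferation genes summed to 97.01 FPKM in CKO and 82.71 FPKM in Ctrl, with 4 of 9 measured members higher and 0 lower. The higher ones were Ccnb2, Birc5, Plk1 and Ube2c, at 6.25 FPKM or less in CKO. Below the minimum, and named outside the naming rule, Top2a was at 1.45 FPKM in CKO and 0.46 FPKM in Ctrl. Mki67 was at 0.86 and 0.41 FPKM, Cdk1 at 0.85 and 0.06 FPKM, and Ccnb1 at 0.76 and 0.03 FPKM, in the same order. Their intervals exclude a ratio of 1, and those of Bub1, Rrm2 and Cdc6, also below the minimum, hold it. Most of the sum was Pcna, named outside the naming rule, at 61.35 FPKM in CKO and 58.53 FPKM in Ctrl. Ezh2, a gene tied to dividing cells, had a ratio below 0 with an interval that holds a ratio of 1. The part of these cells in the ratios of the Polycomb genes was not tested.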

How the data were processed

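RNA-seq was made from about 20000 sorted cells, 1 library per group. The authors deposited FPKM per gene with 2 decimals and a floor of 0.01, a log2 ratio, a p-value and a false discovery rate. HISAT, Bowtie2, RSEM and the build mm10 are named in the submitters' processing notes, without their roles. The p-value in the authors' deposited table behaves as a test on reads, and fitting it over 11626 genes gave about 11470000 reads in CKO and 12530000 in Ctrl, so read numbers here are estimates. Ratios are log2((CKO + 0.5)/(Ctrl + 0.5)) FPKM. Genes averaging 1 FPKM or more counted as measured. A call needed a 1.5-fold ratio or more together with a 95% exact (Clopper-Pearson) interval of estimated reads excluding 1. Intervals cover counting error only, and no test across samples was possible. All members are named, and of each other list up to 4 measured genes, taken by the interval bound nearest to no change. The values of 1 listed gene that is no member are not reported here, though list counts hold it. Members and lists were chosen with earlier results of these data known. Python 3.11.15, pandas 2.3.3 and SciPy 1.17.1 were used, and the calls were tested on simulated data. Alternatives were the pseudocount, the filter, the scaling, the fold threshold, the seed match and, added after seeing the data, subtraction of the length bin median and a search of all protein-coding transcripts.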

Additional observations from a re-analysis of the deposited data

How the results depend on the processing

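No paired analysis was possible because each group holds 1 library, and for the same reason no replicate could be left out. With a log2 threshold of 0.3219 in place of 1.5-fold, 1 member was higher (Cbx7), where 6.33% of measured genes were, and 1 was lower (Jarid2), where 10.5% were (16.8% either way). Which members pass that threshold depends on the setting: Bmi1 passed it with no pseudocount (-0.33), and Cbx7 missed it after rescaling to equal sums (0.28), as did Jarid2 relative to length (-0.27). All 72 values of the members under the alternatives lay inside their main counting interval, and only Rnf2 changed sign, to -0.07 with the libraries rescaled to equal sums. The alternatives reuse the same reads, and the scalings shifted every log2 ratio by only -0.08, 0.01 or 0.04. The count of 72 was therefore largely fixed beforehand and does not measure variation between samples. The log2 ratio ran from -0.40 to -0.27 for Bmi1, from -0.46 to -0.27 for Jarid2 and from 0.28 to 0.40 for Cbx7. Intervals excluding a ratio of 1 numbered 5 after rescaling to equal sums and 4 under each other scaling and relative to length. Members with a seed match numbered 7 with a 6-mer, held by 53.9% of measured genes, and 2 with the 6-mer followed by A, held by 19.6%, against 4 with the 7-mer, held by 29.9%. Ezh1 joined them when all transcripts were searched. Cbx2 no longer passed 1.5-fold with a pseudocount of 1 FPKM (-0.56). Estimated reads limit each member's ratio, most for Ezh2, with 232 reads in CKO and 284 in Ctrl.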

Other observations

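Genes beside the members did not share their ratios in every case. Commd3, just upstream of Bmi1 on the same strand, had a log2 ratio of 0.19, where Bmi1 was at -0.32. Ring1, at 0.09, lies between H2-K1, a class I histocompatibility gene at 0.36, and H2-Ke6 at 0.16. Trmt1l, which overlaps the end of Rnf2 on the opposite strand, was at -0.34 while Rnf2 was at 0.00.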
